A study of Mus musculus with 4 samples.

Results

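The immunoglobulin heavy chain variable genes (Ighv genes) were taken as every row of the expression table whose gene symbol begins with Ighv, in any letter case. They number 120 of the 27179 genes in the table. Of these, 103 are written Ighv, 9 in capitals and 8 in small letters, and all 120 are annotated V segments on the minus strand of mouse chromosome 12. The table was made from bulk RNA of LTi cells (lymphoid tissue inducer cells, a kind of innate lymphocyte that helps to form gut lymphoid tissue), sorted from the small intestinal lamina propria of C57BL/6 mice. The genotypes compared were Gata3fl/fl VavCre mice (Gata3-KO, n = 2 libraries), in which Cre is driven by the Vav promoter, active in blood cells at large and not in LTi cells alone, and Gata3+/+ mice (Ctrl, n = 2 libraries). The labels do not say whether Ctrl mice carried Cre, give no age, and do not say whether a library came from 1 animal or a pool, so the p-values measure only the spread between these libraries. The sort kept live cells negative for lineage markers, KLRG1, NK1.1 and NKp46 and positive for CD127 and CCR6, and the labels do not list the lineage markers. The question was how many Ighv genes were detected, which families they belonged to, and how far single genes dominated in each library.

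An antibody heavy chain gene is assembled in developing B cells by joining 1 V segment to a diversity (D) and a joining (J) segment. Each B cell and its descendants therefore transcribe mainly the V gene that they joined, and plasma cells, which secrete antibody, carry very large amounts of that transcript. A mixture of many clones shows many V genes at moderate levels, and a few abundant clones show as a few dominant V genes. The first number in a V gene's name gives its family, a group of genes with related sequence. LTi cells are not known to make antibody heavy chains.

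Sequences of the V exons, which encode most of the variable domain, are shown for the leading gene of each library, for the gene with the largest difference between genotypes, and for a gene whose V exon is identical to that of another member. They were read from the GENCODE M21 annotation on GRCm38 (mm10), run 5′ to 3′ on the coding strand, and stop at the last 300 bases where the exon is longer. Capitals mark the TGT codon near the 3′ end, which in functional V genes encodes the conserved cysteine just before the third hypervariable loop. A TGT or TGC was found within the last 18 bases of the V exon in 110 of 111 V genes and in 9 of 9 annotated pseudogenes.
Ighv1-9: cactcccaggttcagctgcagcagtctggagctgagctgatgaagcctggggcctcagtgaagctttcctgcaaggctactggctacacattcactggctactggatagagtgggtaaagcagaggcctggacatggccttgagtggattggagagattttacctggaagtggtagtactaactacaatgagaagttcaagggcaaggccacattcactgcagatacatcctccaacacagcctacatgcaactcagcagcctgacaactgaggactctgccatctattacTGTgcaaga
Ighv3-6: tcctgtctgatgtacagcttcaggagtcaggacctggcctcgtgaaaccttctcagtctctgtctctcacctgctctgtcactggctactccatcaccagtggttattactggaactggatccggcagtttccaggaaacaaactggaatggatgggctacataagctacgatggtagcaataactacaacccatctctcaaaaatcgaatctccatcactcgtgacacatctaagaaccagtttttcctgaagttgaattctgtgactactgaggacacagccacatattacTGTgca
Ighv1-26: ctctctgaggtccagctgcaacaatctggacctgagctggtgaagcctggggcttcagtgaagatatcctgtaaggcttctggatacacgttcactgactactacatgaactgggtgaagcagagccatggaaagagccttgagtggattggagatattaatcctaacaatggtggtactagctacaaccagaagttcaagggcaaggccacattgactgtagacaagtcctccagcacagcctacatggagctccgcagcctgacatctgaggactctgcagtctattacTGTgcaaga
Ighv1-64: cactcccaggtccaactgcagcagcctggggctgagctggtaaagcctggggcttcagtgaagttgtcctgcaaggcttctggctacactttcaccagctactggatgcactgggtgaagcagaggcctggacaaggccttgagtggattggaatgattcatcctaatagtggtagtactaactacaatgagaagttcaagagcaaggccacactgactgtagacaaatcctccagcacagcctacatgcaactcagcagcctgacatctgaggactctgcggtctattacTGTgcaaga
Ighv1-67: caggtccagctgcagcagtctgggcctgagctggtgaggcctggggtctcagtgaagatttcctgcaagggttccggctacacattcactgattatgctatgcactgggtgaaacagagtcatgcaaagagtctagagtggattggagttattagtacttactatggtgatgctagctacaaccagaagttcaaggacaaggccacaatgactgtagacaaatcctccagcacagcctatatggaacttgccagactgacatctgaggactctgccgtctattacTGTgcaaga
Ighv1-71: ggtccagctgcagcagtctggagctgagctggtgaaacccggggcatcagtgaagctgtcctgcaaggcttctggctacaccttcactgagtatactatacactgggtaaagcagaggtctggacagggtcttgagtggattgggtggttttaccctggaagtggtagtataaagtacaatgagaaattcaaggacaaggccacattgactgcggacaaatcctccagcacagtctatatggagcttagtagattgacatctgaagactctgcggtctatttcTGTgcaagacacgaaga
The V exons lie at chr12:114583569-114583870 for Ighv1-9, the leading gene of Gata3-KO 1, and at chr12:114288157-114288455 for Ighv3-6, the leading gene of Gata3-KO 2. Those of Ighv1-26 and Ighv1-64, the leading genes of Ctrl 1 and Ctrl 2, lie at chr12:114788372-114788676 and chr12:115507545-115507849. Ighv1-67, with the largest difference, lies at chr12:115603940-115604233, and Ighv1-71, whose exon is identical to that of Ighv1-62-2, at chr12:115742205-115742506. Ighv1-9 shared 82.3% of bases with Ighv1-26 and 87.2% with Ighv1-64 but 58.9% with Ighv3-6, which is of another family. Close relatives were common: 56 of the 120 members had another member at 95% identity or more and 14 at 98% or more. How the authors' counting treated reads that match several positions is not given in the sources used here, so levels of such near-identical genes are uncertain.

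Depth, worked out from whole reads recovered from the deposited values, was 24315878 and 23973995 reads in Gata3-KO and 14294708 and 12670034 reads in Ctrl, 1.79 times as many on average in Gata3-KO. Deposited values are log2(RPKM + 1) scaled to each library's total, where RPKM is reads scaled by gene length and library size. On that scale the median tested gene of the whole table was 0.43 higher in Gata3-KO, so counts of called genes are also given after median-ratio scaling, which brought that median to 0.04. The targeted gene, Gata3, which encodes a transcription factor of lymphoid cells, had 34.5 and 23.3 RPKM in Gata3-KO and 84.3 and 50.7 RPKM in Ctrl. The groups did not overlap, and the log2 difference of -1.18 ± 0.36 (SE) did not pass the test (limma, adjusted p = 0.0901). None of the 14 listed LTi genes was at 0 in any of the 4 libraries.

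Nearly all Ighv genes were detected in every library, more of them in Gata3-KO. A deposited value above 0.0001, meaning at least 1 read, was found for 117 and 116 of the 120 members in Gata3-KO and for 108 and 104 in Ctrl. The numbers with at least 10 reads were 111 and 111 in Gata3-KO and 60 and 68 in Ctrl, so many detected members in Ctrl rested on few reads. Thinned to the depth of the shallowest library, 116.0 and 115.7 members would be detected in Gata3-KO, against 106.6 and 104.0 in Ctrl, and the groups still did not overlap. All 4 libraries had reads for 101 members. Only Ighv1-62-1 had none in any library. The 9 members without reads in both Ctrl libraries were low in Gata3-KO as well, reaching at most 18.5 RPKM, and included Ighv12-3, Ighv15-2 and Ighv16-1, the single members of their families.

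The summed level of the Ighv genes was higher in both Gata3-KO libraries than in either Ctrl library. Summed RPKM was 29483 and 10758 in Gata3-KO and 1576 and 3968 in Ctrl, with means of 20120 ± 13241 in Gata3-KO and 2772 ± 1692 in Ctrl (SD, n = 2 each), a ratio of 7.26. The 2 libraries of each genotype differed more than 2-fold. With 2 libraries against 2, an exact permutation test cannot go below a p of 0.333, so no test of this sum is given. As a share of library reads, Ighv genes took 0.902% and 0.329% in Gata3-KO and 0.0477% and 0.123% in Ctrl. The 95% Wilson intervals ran from 0.898% to 0.905% and from 0.327% to 0.332% in Gata3-KO, and from 0.0466% to 0.0489% and from 0.122% to 0.125% in Ctrl. These cover only the counting error of reads taken as independent. The libraries had no molecular identifiers to tell copied reads from separate molecules, so the intervals may be too narrow. In bulk RNA, fewer cells of a type and less RNA per cell cannot be told apart.

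**Figure D1:**
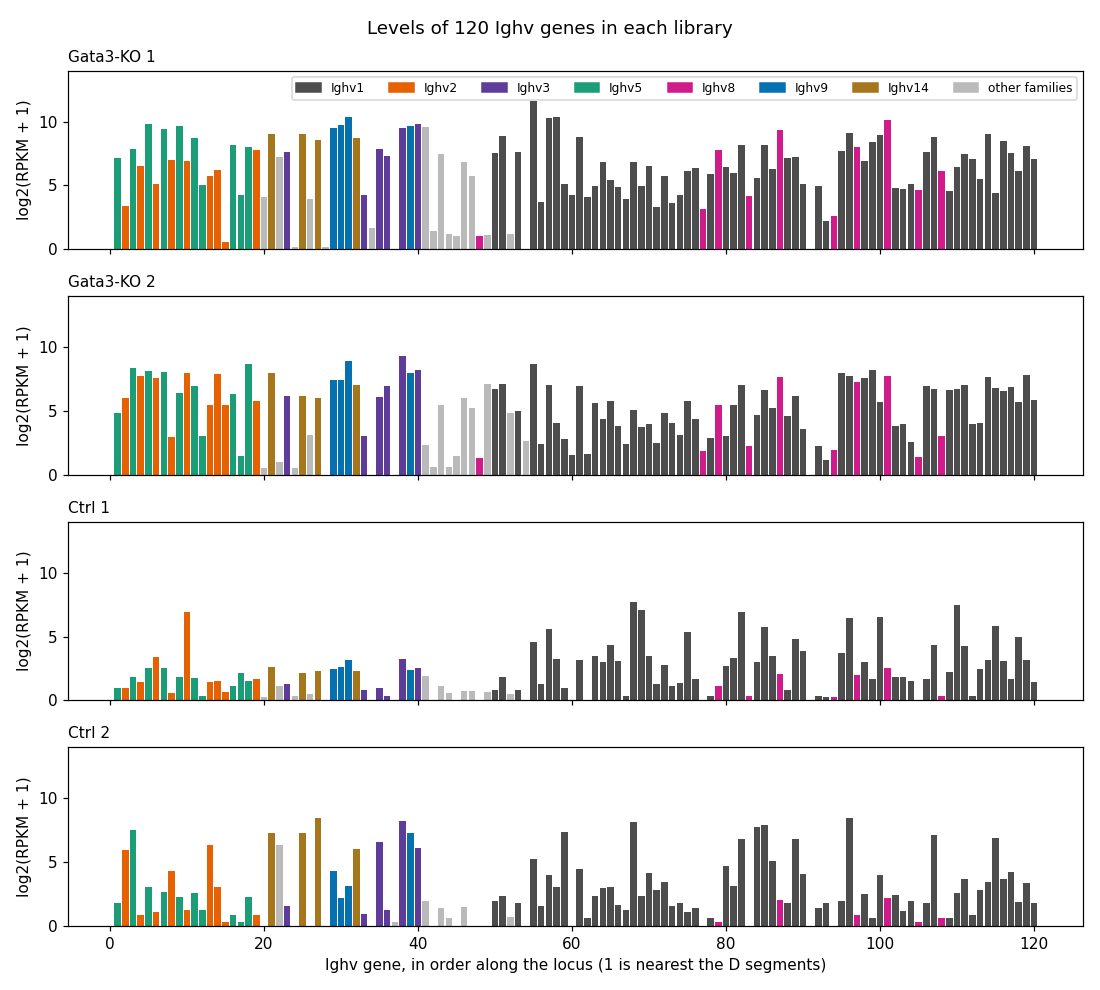
Bars give log2(RPKM + 1) of each of the 120 Ighv genes, 1 panel per library, in order along the locus from the D segments, coloured by family. In the Gata3-KO panels most positions carry a high bar, with a median of 89.8 and 44.0 RPKM, while in the Ctrl panels a minority of bars stand out over low neighbours, with a median of 2.27 and 2.95 RPKM.

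Most members were low in both Ctrl libraries. The median member had 89.8 and 44.0 RPKM in Gata3-KO and 2.27 and 2.95 RPKM in Ctrl. Over 100 RPKM stood 59 and 40 members in Gata3-KO and 5 and 15 in Ctrl. Of the 120 members, 91 were highest in Gata3-KO 1, 20 in Gata3-KO 2, 2 in Ctrl 1 and 6 in Ctrl 2.

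Single genes held a larger part of the total in Ctrl once several leading genes were summed, while the share of the first gene alone overlapped between genotypes. In Gata3-KO 1 the leading gene was Ighv1-9, with 3101 RPKM and 10.5% of the summed Ighv RPKM, and in Gata3-KO 2 it was Ighv3-6, with 654 RPKM and 6.08%. In Ctrl 1 it was Ighv1-26, with 211 RPKM and 13.4%, and in Ctrl 2 it was Ighv1-64, with 359 RPKM and 9.04%. Each library thus had its own leading gene. By reads rather than RPKM, the leader of Ctrl 2 was Ighv14-3, with 10.03% of Ighv reads. The 3 leading genes together held 19.4% and 14.5% in Gata3-KO and 32.9% and 25.4% in Ctrl. The 10 leading genes held 41.9% and 34.4% in Gata3-KO and 69.6% and 60.8% in Ctrl, without overlap. It took 14 and 18 genes to reach 50% of the summed RPKM in Gata3-KO and 6 and 8 in Ctrl. The effective number of genes (the inverse Simpson index, the number of equally abundant genes that would give the same evenness) was 33.3 and 45.9 in Gata3-KO and 16.2 and 20.7 in Ctrl.

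**Figure D2:**
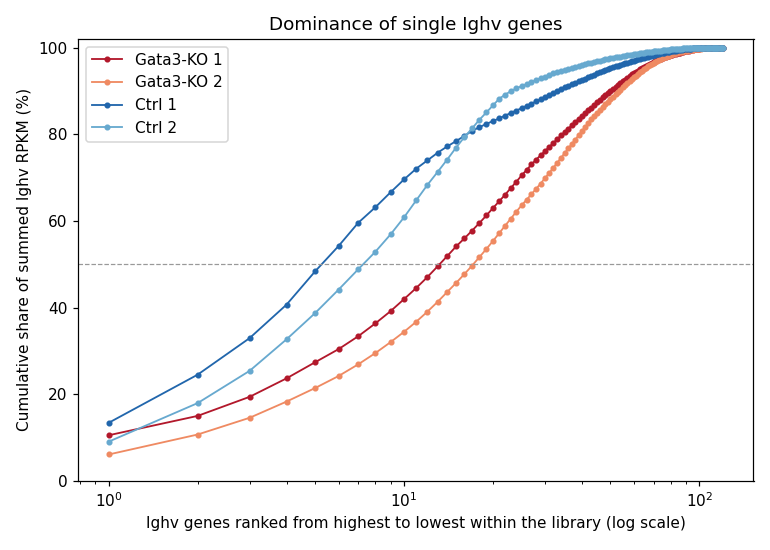
Curves give the cumulative share of the summed Ighv RPKM against the number of genes, ranked within each library on a log axis, with a dashed line at 50%. At the first gene Gata3-KO 1 lies above Ctrl 2, and at 10 genes both Gata3-KO curves lie below both Ctrl curves, reaching 41.9% and 34.4% in Gata3-KO against 69.6% and 60.8% in Ctrl.

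The genes that led 1 library were often minor in another. Ighv1-9 had 3101 and 416 RPKM in Gata3-KO and 22.8 and 37.3 RPKM in Ctrl. Ighv3-6 had 742 and 654 RPKM in Gata3-KO and 8.51 and 295 RPKM in Ctrl. Ighv14-3 had 381 and 63.8 RPKM in Gata3-KO and 3.99 and 353 RPKM in Ctrl. The groups overlapped for Ighv14-3 and did not overlap for Ighv1-9 or Ighv3-6, although Ighv3-6 was much higher in Ctrl 2 than in Ctrl 1. Ighv1-14, an annotated pseudogene and the third most abundant member of Gata3-KO 1, had 1298 and 15.7 RPKM in Gata3-KO and 8.57 and 7.52 RPKM in Ctrl. Ighv13-2 had 762 and 4.03 RPKM in Gata3-KO and 2.80 and 2.89 RPKM in Ctrl, so that its level in Gata3-KO came almost wholly from 1 library. Ighv10-1 showed the opposite, with 1.15 and 136 RPKM in Gata3-KO and 0.588 and 0 RPKM in Ctrl. Ighv1-76 had 86.9 and 107 RPKM in Gata3-KO and 175 and 4.83 RPKM in Ctrl, and Ighv2-6 had 122 and 257 RPKM in Gata3-KO and 122 and 1.36 RPKM in Ctrl. Ighv4-1, the single member of its family, was high in 1 library of each genotype, at 149 and 0.993 RPKM in Gata3-KO and 1.19 and 80.0 RPKM in Ctrl.

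Replicate libraries differed more in their Ighv genes than in a set of other tested genes, which was not matched in level within each genotype. The median absolute log2 difference between replicates was 1.52 in Gata3-KO and 0.80 in Ctrl over the members, against 0.25 in Gata3-KO and 0.38 in Ctrl over 2961 other tested genes between 3.62 and 5.67 on the log2(RPKM + 1) scale. The median member lay below that range in Ctrl, at 2.27 and 2.95 RPKM, and above it in Gata3-KO 1, at 89.8 RPKM. The value of 1.52 includes a shift that most members shared, the median member being 2.74 times as high in Gata3-KO 1 as in Gata3-KO 2. At least 10-fold differences between replicates were seen for 15 of 115 members with 10 reads or more in a Gata3-KO library and for 22 of 76 members with 10 reads or more in a Ctrl library. Across the 120 members, which share a library's depth and are not independent, Spearman's rho was 0.75 between the Gata3-KO libraries and 0.70 between the Ctrl libraries, and 0.50 to 0.60 across genotypes. The 10 leading genes of the Gata3-KO libraries had 4 in common, Ighv1-9, Ighv3-8, Ighv5-6 and Ighv9-3. Those of the Ctrl libraries had 3 in common, Ighv1-26, Ighv1-55 and Ighv1-64. Across genotypes 0 to 2 were shared. Ighv3-8 and Ighv1-55 are named here after their values were seen.

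The Ighv1 family, the largest in the mouse, held less of the total in Gata3-KO. Its 60 members took 45.7% and 39.4% of the summed Ighv RPKM in Gata3-KO and 84.6% and 53.0% in Ctrl. The groups did not overlap, although the Ctrl libraries lay further apart than the gap between the groups. Without the leading gene of each library the share was 38.9% and 37.9% in Gata3-KO and 81.2% and 47.4% in Ctrl. By detected genes it was 50.4% and 50.9% in Gata3-KO and 52.8% and 55.8% in Ctrl, where the libraries lay closer together.

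Families Ighv5, Ighv6, Ighv8 and Ighv9 took larger shares in Gata3-KO than in Ctrl, without overlap. Ighv5, with 10 members, held 12.9% and 14.98% in Gata3-KO and 1.57% and 5.48% in Ctrl. Ighv6, with 5 members, held 1.18% and 1.34% in Gata3-KO and 0.193% and 0.0996% in Ctrl. Ighv8, with 10 members, held 7.99% and 5.90% in Gata3-KO and 0.829% and 0.219% in Ctrl. Ighv9, with 4 members, held 12.7% and 10.2% in Gata3-KO and 1.38% and 4.69% in Ctrl. Ighv11 and Ighv12 were also higher without overlap but took under 0.1% in every library. The shares of Ighv2, Ighv3, Ighv4, Ighv7, Ighv10, Ighv13, Ighv14, Ighv15 and Ighv16 overlapped. Ighv3 held 7.60% and 11.3% in Gata3-KO and 1.06% and 11.7% in Ctrl, Ighv14 held 6.29% and 4.79% in Gata3-KO and 1.06% and 18.4% in Ctrl, and Ighv2 held 2.45% and 10.4% in Gata3-KO and 8.93% and 4.31% in Ctrl. In Ctrl 2 the largest share within Ighv14 was that of Ighv14-3, at 8.89% of the summed Ighv RPKM. The families of a library divide 1 total, so their shares are not independent. Random ordering of 2 libraries against 2 gives no overlap, in either direction, with a probability of 0.333.

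**Figure D3:**
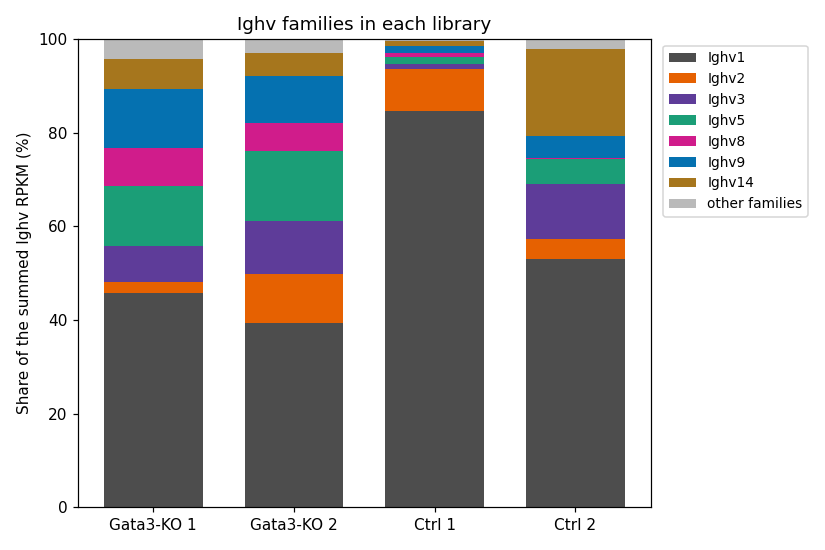
Stacked bars give each family's share of the summed Ighv RPKM in each library. Ighv1 fills 45.7% and 39.4% of the Gata3-KO bars and 84.6% and 53.0% of the Ctrl bars, and Ighv8 fills 7.99% and 5.90% of the Gata3-KO bars and under 1% of the Ctrl bars.

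Along the locus, the members were split into 4 stretches of 30 genes from the D segments outwards. The second stretch, between 114140692 and 114666165 on chromosome 12 (GRCm38), which holds Ighv1-9 and most of Ighv3, took 41.6% and 29.8% of the summed RPKM in Gata3-KO and 7.80% and 23.4% in Ctrl. The third stretch, between 114682632 and 115359433, which holds Ighv1-26, took 11.2% and 10.7% in Gata3-KO and 45.1% and 28.7% in Ctrl. Neither stretch overlapped between genotypes. The nearest stretch took 26.9% and 32.9% in Gata3-KO and 12.1% and 29.3% in Ctrl, and the farthest took 20.2% and 26.6% in Gata3-KO and 34.9% and 18.7% in Ctrl. Family and position go together in this locus and were not separated.

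Gene by gene, 105 of the 120 members passed the filter on low values and 46 were called higher in Gata3-KO (limma on the deposited scale, Benjamini-Hochberg adjusted p under 0.05 over 14221 genes), where 8.35% of all tested genes were called higher. After median-ratio scaling 22 members were called higher, where 0.598% of all tested genes were, and all 22 were among the 46. No member was called lower, where 0.689% of all tested genes were called lower on the deposited scale, and 0.436% with median-ratio scaling. At an unadjusted p under 0.05, 1 member, Ighv1-26, was lower by limma under both scalings and by limma-voom on the recovered reads. Of the tested members, 19 passed the filter through Gata3-KO libraries alone and had to differ, 11 of them called. The other 86 had 35 called. The median log2 difference over the 119 members with any reads, with no filter, was 2.93, beside 0.28 over all 19047 genes with reads. Both Gata3-KO libraries lay above both Ctrl libraries for 89 of the 120 members, beside 45.9% of all genes with reads, and 30 members overlapped. After median-ratio scaling this held for 72 of the 105 tested members, beside 29.7% of all tested genes, and the reverse for 1, beside 25.6%.

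The calls depended on the method. Limma-voom, a test on reads, called 1 member, Ighv1-85, named after its values were seen, where 0.464% of all tested genes were called higher. Limma called 0 members without the filter or without any 1 of the 4 libraries, with 63 to 77 members at an unadjusted p under 0.05.

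**Figure D4:**
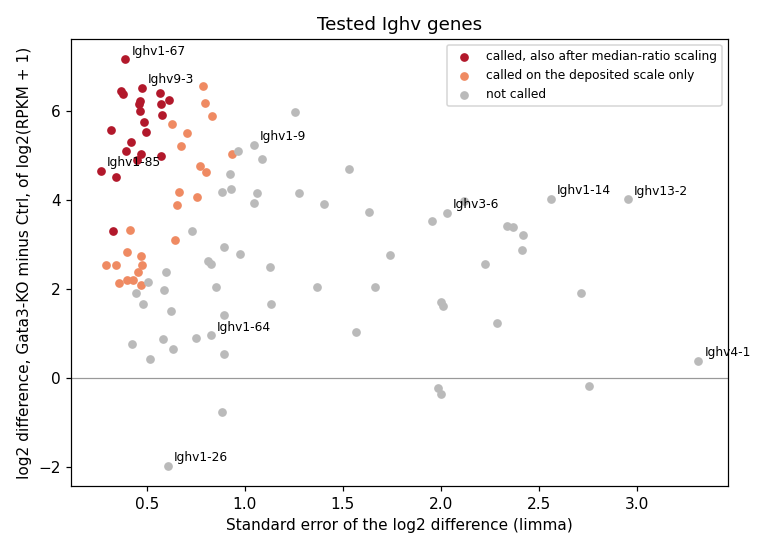
Each point is 1 of the 105 tested Ighv genes, with the log2 difference (Gata3-KO minus Ctrl) of log2(RPKM + 1) against its limma standard error. The 22 genes called under both scalings lie between 3.29 and 7.16 with small errors, grey points spread to the right where replicates disagree, as for Ighv4-1, and Ighv1-26 lies lowest at -1.97.

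The largest differences belonged to genes that were nearly silent in both Ctrl libraries. Ighv1-67 had 332 and 297 RPKM in Gata3-KO and 2.14 and 0.537 RPKM in Ctrl, where it rested on 9 and 2 reads. Its log2 difference was 7.16 ± 0.39 (SE, adjusted p = 0.00317 by limma and 0.0226 after median-ratio scaling). Ighv5-17 had 261 and 402 RPKM in Gata3-KO and 1.90 and 3.76 RPKM in Ctrl, a log2 difference of 6.45 ± 0.37 (limma, adjusted p = 0.00317). Ighv3-5 had 154 and 127 RPKM in Gata3-KO and 0.234 and 1.32 RPKM in Ctrl, a log2 difference of 6.38 ± 0.38 (limma, adjusted p = 0.00346). In Ctrl Ighv3-5 rested on 1 and 5 reads, so it passed the filter through Gata3-KO libraries alone and had to differ. For these 3 genes the replicates of each genotype lay close beside the gap between genotypes. Ighv9-3, among the 3 highest of both Gata3-KO libraries, had 1317 and 495 RPKM in Gata3-KO and 7.77 and 7.87 RPKM in Ctrl, a log2 difference of 6.52 ± 0.48 (limma, adjusted p = 0.00705). Ighv8-8, Ighv8-11, Ighv5-6, Ighv5-9 and Ighv5-15 were also called higher under both scalings, with log2 differences of 6.15 to 6.41. Ighv5-15 rested on 5 and 3 reads in Ctrl and likewise passed the filter through Gata3-KO libraries alone. Ighv8-12, Ighv9-2 and Ighv6-3 were called on the deposited scale, with log2 differences of 6.55, 6.19 and 5.22, and missed the threshold after median-ratio scaling, at adjusted p of 0.0562, 0.0577 and 0.0600. Of these, Ighv6-3 rested on 5 and 6 reads in Ctrl and also passed the filter through Gata3-KO libraries alone.

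By family, the called members were 21 of 59 tested in Ighv1, 6 of 10 in Ighv5, 7 of 8 in Ighv8, 3 of 6 in Ighv3, 3 of 8 in Ighv2, 3 of 3 in Ighv6, 2 of 4 in Ighv9 and 1 of 1 in Ighv11, where the gene was Ighv11-2. After median-ratio scaling they were 10 in Ighv1, 4 in Ighv5, 2 each in Ighv3, Ighv6 and Ighv8, and 1 each in Ighv2 and Ighv9. The tallies on the deposited scale include the 11 called members that passed the filter through Gata3-KO libraries alone and had to differ. Among these were Ighv6-3 and Ighv11-2, the latter with 2 and 0 reads in Ctrl. None of the 4 tested members of Ighv14 was called under either scaling, and Ighv14-1, Ighv14-2 and Ighv14-3 were all above 100 RPKM in Ctrl 2. Ighv14-1, for example, had 514 and 249 RPKM in Gata3-KO and 5.23 and 157 RPKM in Ctrl, a log2 difference of 3.52 ± 1.95 (limma, adjusted p = 0.339). Of the annotated pseudogenes 3 of 8 tested were called, and 2 under both scalings, Ighv1-73 and Ighv1-86. Pseudogenes held 6.69% and 3.27% of the summed RPKM in Gata3-KO and 1.39% and 1.06% in Ctrl, and Ighv1-14 made up most of the share in Gata3-KO 1. Ighv1-73, Ighv1-86 and Ighv14-2 are named here after their values were seen.

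Ighv1-26 was the only member with both Gata3-KO libraries below both Ctrl libraries, beside 6.79% of all genes with reads. It had 117 and 32.9 RPKM in Gata3-KO and 211 and 289 RPKM in Ctrl, a log2 difference of -1.97 ± 0.61 (limma, adjusted p = 0.0989, and 0.117 after median-ratio scaling). Other members abundant in Ctrl had smaller differences than their errors could resolve. Ighv1-64 had 545 and 212 RPKM in Gata3-KO and 84.9 and 359 RPKM in Ctrl, a log2 difference of 0.96 ± 0.83 (limma, adjusted p = 0.484). Ighv1-31 had 29.9 and 12.2 RPKM in Gata3-KO and 133 and 4.03 RPKM in Ctrl, a log2 difference of -0.36 ± 2.00 (limma, adjusted p = 0.929). Ighv1-53, named after its values were seen, differed little between genotypes relative to its error, at 292 and 129 RPKM in Gata3-KO and 121 and 109 RPKM in Ctrl, with a log2 difference of 0.75 ± 0.42 (limma, adjusted p = 0.280).

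The Ighv genes kept a nearly fixed ratio to the heavy chain constant genes, the segments that follow V, D and J in the finished transcript and set the antibody class. For every 100 constant-gene reads there were 12.8 and 12.7 Ighv reads in Gata3-KO and 12.7 and 11.5 in Ctrl, although Ighv reads themselves numbered 219220 and 78938 in Gata3-KO and 6825 and 15641 in Ctrl. Constant reads were almost all from Igha, the class of gut antibody, which took 97.4% and 94.9% of them in Gata3-KO and 99.2% and 97.8% in Ctrl. Igha had 56209 and 20135 RPKM in Gata3-KO and 3053 and 8578 RPKM in Ctrl, a log2 difference of 2.72 ± 0.72 (limma, adjusted p = 0.0657). Of 7 constant genes tested, 2 were called higher, Ighm and Ighd, the classes of naive B cells, and 1 after median-ratio scaling. The shares called higher over all tested genes were 8.35% and 0.598%. Ighm had 1062 and 638 RPKM in Gata3-KO and 17.2 and 39.6 RPKM in Ctrl, a log2 difference of 4.92 ± 0.47 (limma, adjusted p = 0.0109, and 0.0483 after median-ratio scaling). Ighd had 42.6 and 56.1 RPKM in Gata3-KO and 0.833 and 3.91 RPKM in Ctrl, a log2 difference of 4.06 ± 0.50 (limma, adjusted p = 0.0174, and 0.0625 after median-ratio scaling).

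Summed levels of joining segments and kappa variable genes were also higher in both Gata3-KO libraries than in either Ctrl library, while lambda genes were mixed. Of 4 joining segments 1, Ighj4, was called higher, and none after median-ratio scaling. The summed RPKM of the joining segments, which are short, was 51314 and 18978 in Gata3-KO and 2284 and 6953 in Ctrl. Of 103 kappa variable genes, the light chain partners of Ighv, 28 of 97 tested were called higher, and 7 after median-ratio scaling. Beside these counts, 8.35% of all tested genes were called higher, and 0.598% after median-ratio scaling. Igkc, the kappa constant gene, had a log2 difference of 3.10 ± 0.60 (limma, adjusted p = 0.0349, and 0.109 after median-ratio scaling). Kappa variable reads numbered 55.4 and 58.1 per 100 Igkc reads in Gata3-KO and 49.9 and 44.7 in Ctrl. Iglc1, a lambda constant gene, had a log2 difference of -0.60 ± 0.98 (limma, adjusted p = 0.724). Another, Iglc3, named after its values were seen, had -0.25 ± 0.76 (limma, adjusted p = 0.860). A further lambda constant gene, Iglc2, was called higher, at 2.86 ± 0.39 (limma, adjusted p = 0.0195, and 0.0785 after median-ratio scaling). Rag1, part of the recombinase that joins V genes, had 0.0370 and 0.344 RPKM in Gata3-KO and 0 in both Ctrl libraries. Of 11 recombination and switching genes tested, 1 was called higher, Dntt, and 0 after median-ratio scaling (limma, adjusted p = 0.0360 and 0.0921), a share near the 8.35% of all tested genes called higher on the deposited scale.

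**Figure D5:**
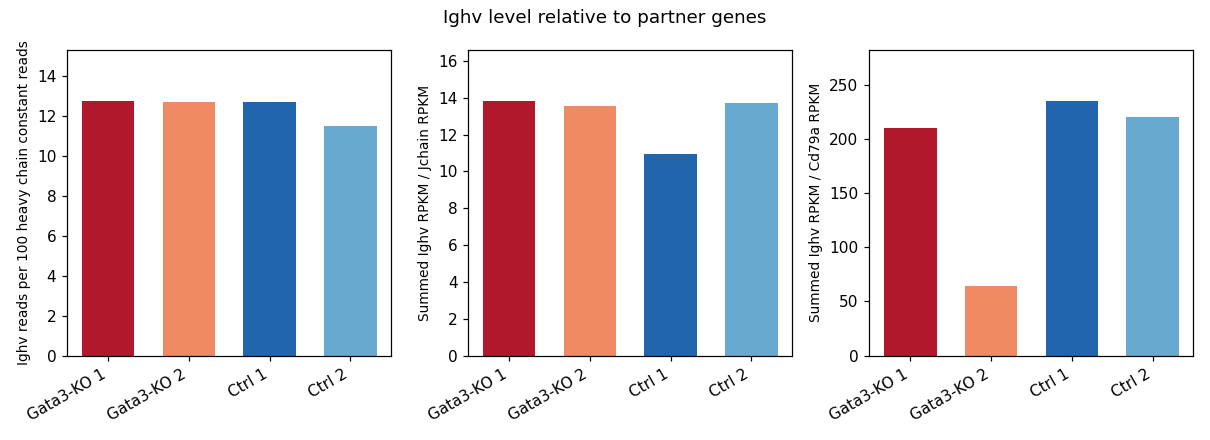
Bars give, per library, Ighv reads per 100 heavy chain constant reads, and summed Ighv RPKM per RPKM of Jchain, which links secreted antibody units, and of Cd79a, part of the B cell receptor. The first ratio runs from 11.5 to 12.8 and the Jchain ratio from 10.96 to 13.9 in all 4 libraries, while the Cd79a ratio is 210 and 64.1 in Gata3-KO and 235 and 220 in Ctrl.

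Markers of B cells and plasma cells differed between the same libraries. Beside the counts of both lists, 8.35% of all tested genes were called higher, and 0.598% after median-ratio scaling. Of 16 B cell markers 14 were called higher, and 1 after median-ratio scaling, with summed RPKM of 645 and 815 in Gata3-KO and 86.9 and 110 in Ctrl. Cd79a had 140 and 168 RPKM in Gata3-KO and 6.70 and 18.02 RPKM in Ctrl, and Cd79b had 70.5 and 122 RPKM in Gata3-KO and 22.2 and 24.6 RPKM in Ctrl. Both were higher in Gata3-KO 2 than in Gata3-KO 1, whereas the median Ighv gene was 2.74 times as high in Gata3-KO 1 as in Gata3-KO 2. Cr2 was the only B cell marker at 0 in any library, in Ctrl 1. Of 10 plasma cell markers 4 were called higher, and 0 after median-ratio scaling, with summed RPKM of 59401 and 21758 in Gata3-KO and 3541 and 9193 in Ctrl and none at 0. Igha, which is on this list, made up most of these sums, at 56209 and 20135 RPKM in Gata3-KO and 3053 and 8578 RPKM in Ctrl. Jchain had 2128 and 793 RPKM in Gata3-KO and 144 and 289 RPKM in Ctrl, a log2 difference of 2.67 ± 0.58 (limma, adjusted p = 0.0466, and 0.157 after median-ratio scaling). The order of the libraries by Jchain was the same as by summed Ighv RPKM. Among the listed plasma cell markers, Prdm1, Sdc1 and Xbp1 did not follow that order, and the others did. Prdm1 had 3.42 and 5.10 RPKM in Gata3-KO. Sdc1 had 162 and 175 RPKM in Gata3-KO and 91.4 and 59.1 RPKM in Ctrl. Xbp1 had 479 and 465 RPKM in Gata3-KO and 236 and 222 RPKM in Ctrl. The part that B cells or plasma cells had in the Ighv levels was not tested.

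Transcription factors that act on V gene promoters and enhancers were higher in part on the deposited scale. Of 12 listed, 7 were called higher and 0 after median-ratio scaling, with summed RPKM of 353 and 360 in Gata3-KO and 116 and 118 in Ctrl. Beside this list and those that follow, 8.35% of all tested genes were called higher, and 0.598% after median-ratio scaling. Pax5, which holds B cell identity, had 11.7 and 13.1 RPKM in Gata3-KO and 0.0579 and 1.76 RPKM in Ctrl, and Pou2af1, a coactivator of immunoglobulin promoters, had 54.0 and 37.5 RPKM in Gata3-KO and 1.69 and 5.08 RPKM in Ctrl. Markers of other cells differed as well. Of 10 epithelial markers 9 were called higher, and 3 after median-ratio scaling, with summed RPKM of 1439 and 2071 in Gata3-KO and 361 and 218 in Ctrl. Of 10 T cell markers 4 were called higher, and 1 after median-ratio scaling, with summed RPKM of 674 and 245 in Gata3-KO and 205 and 121 in Ctrl. Of 6 plasmacytoid dendritic cell markers 2 were called higher, and 1 after median-ratio scaling, with summed RPKM of 515 and 491 in Gata3-KO and 305 and 328 in Ctrl. Of 4 germinal centre markers tested of 8 listed, 0 were called, with summed RPKM of 56.4 and 42.1 in Gata3-KO and 23.8 and 22.7 in Ctrl. Of 14 LTi genes, Il22 and Cd4 were called lower and Il17a higher under both scalings. Their summed RPKM was 1520 and 1933 in Gata3-KO and 4289 and 2889 in Ctrl. Il22 alone had 129 and 287 RPKM in Gata3-KO and 2401 and 1520 RPKM in Ctrl. It made up a large part of the Ctrl sums, so the sums do not describe the LTi genes as a group. On the deposited scale, 1 of 14 called higher is a share near the 8.35% of all tested genes. Called lower were 0.689% of all tested genes, and 0.436% after median-ratio scaling. The part of other cell types, and of the greater depth in Gata3-KO, in these differences was not tested.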

How the data were processed

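Smart-seq2 libraries, per the labels' protocols, were made from RNA of sorted LTi cells, 2 for each genotype, and hold no molecular identifiers. The submitters' processing notes name Subread, featureCounts and the build mm10, without versions. As the values themselves show, the authors deposited log2(RPKM + 1) plus a constant of 0.0001, scaled by library total alone. The members and lists were chosen with earlier results of these data known.

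Whole reads, within 0.01 reads, were recovered from the values for 100% of the 19047 genes with reads. Recovered reads made up 98.6% to 99.0% of library totals. They served for depth, the filter, scaling and shares of reads. Genes were tested with limma 3.58.1 in R 4.3.3 (trend and robust variance, two-sided, Benjamini-Hochberg, threshold 0.05) on log2(RPKM + 1), pseudocount 1, which understates changes of low genes. Tested genes reached 0.523 CPM in 2 or more libraries, with 15 reads or more over all 4, and 3 reads correspond to 0.123 to 0.237 CPM. On simulated data the fit on the deposited scale called unchanged genes where a few abundant changed genes moved the composition of the libraries, and median-ratio scaling removed most of these calls. The deposited scale had been set as the main one, so both counts are given, and the count after median-ratio scaling is the more guarded.

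Named genes were the 3 highest of each library, the leading gene of each family and the 10 largest differences among called genes, to at most 30 in all. Alternatives were median-ratio and TMM scaling, limma-voom on recovered reads, another pseudocount, no filter and a stricter one, a replicate block and leaving out each library. Upstream promoters of Ighv genes were not used here. Gene types, V exons and order came from GENCODE M21 and RefSeq on GRCm38.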

Additional observations from a re-analysis of the deposited data

How the results depend on the processing

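All called members were called higher under every setting run. The count was 46 of 105 tested on the deposited scale, 22 with median-ratio scaling, 22 with TMM scaling, 1 with limma-voom on recovered reads and 0 without a filter, where 72 of 119 had an unadjusted p under 0.05. It was 0 in each of the fits that left out 1 library, with 63 to 77 members at an unadjusted p under 0.05. Limma-voom with median-ratio scaling, chosen after seeing the data, called 0, with 35 at an unadjusted p under 0.05. A pseudocount of 0.1 called 48, the stricter filter 37 of 77, and symbols written exactly as Ighv, also chosen after seeing the data, 41 of 89. Over all tested genes, 8.35% were called higher on the deposited scale, 0.598% with median-ratio scaling and 0.464% with limma-voom. That share is not given here for fits with other settings, so their counts have no share to stand beside. Leaving out the filter also added genes to the test. The cause of the shifts in the count of called members between settings was not tested. Of the named genes 13 of 25 tested were called, and 9 of the 13 held with median-ratio scaling, 9 with TMM scaling and 0 with limma-voom.

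The labels do not say that replicate numbers pair the libraries, and same-numbered libraries did not deviate together (correlation -0.02 over tested genes). The replicate block called 45 members, and the replicate block with median-ratio scaling, chosen after seeing the data, 8. The share of all tested genes called in these fits is likewise not given here.

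The log2 ratio of summed levels was 2.86, between 2.26 and 3.02 under other scalings or gene sets, and 1.96 to 3.67 without 1 library. Mean detected members were 116.5 in Gata3-KO and 106.0 in Ctrl. They became 115.5 in Gata3-KO and 92.5 in Ctrl at 3 reads or more, 108.5 in Gata3-KO and 98 in Ctrl without pseudogenes, and 99.5 in Gata3-KO and 91.0 in Ctrl for symbols written exactly as Ighv. The Ighv1 share became 50.4% and 50.9% in Gata3-KO and 52.8% in Ctrl 1 by detected genes, and 38.9% in Gata3-KO 1 without the leading genes. Some members that were not called changed sign. Ighv4-1, at 0.38 on the deposited scale, was -0.071 with median-ratio scaling, with or without the replicate block, -0.057 with TMM scaling and -0.12 with limma-voom and median-ratio scaling. Leaving out 1 library, it ran from -2.74 (without Gata3-KO replicate 1) to 3.50. In the same way Ighv1-76 ran from -0.85 (without Ctrl replicate 2) to 4.06, Ighv1-31 from -2.73 to 2.01 (without Ctrl replicate 1), Ighv1-64 from -0.078 (without Ctrl replicate 1) to 1.99, and Ighv14-3 from -1.17 (without Ctrl replicate 1) to 4.98.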

Other observations

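Diversity segments, which lie between V and J in the joined gene, were too short and too rarely counted to be tested, 0 of 10 passing the filter. Their summed RPKM was 51.7 and 25.7 in Gata3-KO and 4.12 and 170 in Ctrl. Ighd3-2 had 0 RPKM in both Gata3-KO libraries and 0 and 163 RPKM in Ctrl, and held 66 of the 68 diversity segment reads of Ctrl 2. By reads, the leading Ighv gene of Ctrl 2, Ighv14-3, held 10.03% of 15641 Ighv reads. With 120 Ighv genes against 10 short segments with few reads, these parts are not directly comparable. Lambda variable genes, the less used light chain partners in the mouse, had summed RPKM of 340 and 1180 in Gata3-KO and 774 and 1496 in Ctrl, with 1 of 3 called higher by limma and 0 after median-ratio scaling. The shares called higher over all tested genes were 8.35% and 0.598%. The lambda sum overlapped between genotypes, whereas the Ighv sum did not.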
